A study of Mus musculus with 45 samples.

Results

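The genes described here are a set of cell cycle and DNA replication genes, measured in macrophages sorted from mouse muscle before and after injury. The set lists 37 genes. Cdkn1a was left out because its probe set names 2 symbols, so 36 genes were measured, of 19752 genes with a probe set that names a single symbol. For Pcna and Tk1, which have 2 such probe sets each, the one with the highest mean over all 45 arrays was taken. By role, 12 genes act in S phase (Mcm2 to Mcm7, Pcna, Rrm1, Rrm2, Tyms, Tk1 and Ccne2), 23 act in G2 and mitosis (among them Mki67, Top2a, Ccna2, Ccnb2, Cdk1, Bub1, Plk1, the Aurora kinases and the mitotic kinesins), and Ccnd1 acts in G1. All 36 entered the tests, because each reached the median of all values (log2 intensity 7.57) as the mean of at least 1 group. On the mean over all arrays 29 lay above that level. The other 7 (Ccne2, Birc5, Cenpe, Hmmr, Prc1, Ncapg and Melk) entered only through the groups in which they were high. They are counted below wherever they were called. Of the 161 calls of the set over all comparisons, 148 were of the 29 genes.

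Cells that divide copy their DNA in S phase and separate the copies in mitosis. D-type cyclins carry a cell through G1, the MCM proteins form the helicase that opens DNA for replication, and ribonucleotide reductase supplies its building blocks. A later wave of genes is then transcribed for G2 and mitosis, including cyclins A and B, the kinases Cdk1 and Plk1, the checkpoint kinase Bub1 and the kinesin motors of the spindle. After muscle injury the macrophage pool is fed by monocytes that enter from blood, and macrophages are also known to divide within the tissue. MHC class II marks the macrophages with antigen presenting features, and its absence marks the other main subset.

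The arrays came from male C57Bl6 mice of 2 genotypes, Foxp3.DTR- and Foxp3.DTR+, where the second carries the diphtheria toxin receptor under the Foxp3 locus so that diphtheria toxin (DT) removes regulatory T cells. Cells were sorted by flow cytometry into MHCII+ and MHCII- macrophages and their total RNA was hybridised to Affymetrix Mouse Gene 1.0 ST arrays, giving 18 groups of 2 to 4 arrays. Day 0 groups had no injury, and all others had cardiotoxin, a snake toxin that kills muscle fibres. Day 0 held Foxp3.DTR- mice of 10 weeks (MHCII+ and MHCII-, 2 arrays each). Day 1 held both genotypes and both subsets at 8 weeks, with 24 h of DT in the titles (2 arrays in each of 4 groups). Day 4 held Foxp3.DTR- mice of 8 weeks with no DT time in the titles (2 arrays per subset). Day 7 came in 3 sets. The first had 24 h of DT at 8 weeks (Foxp3.DTR- MHCII+ 4 arrays and MHCII- 3, Foxp3.DTR+ MHCII+ 2 and MHCII- 3). The second had 8 h of DT at 12 weeks (Foxp3.DTR- MHCII+ 3 and MHCII- 4, Foxp3.DTR+ MHCII+ 3 and MHCII- 3). The third had no DT time at 10 weeks (MHCII+ only, 2 arrays per genotype). The labels do not say when the DT hours were counted from, nor whether replicates are separate animals. The p-values therefore describe sample-to-sample spread, which may be technical. The sort used CD11b+ F4-80+ Ly6g- cells throughout, with SiglecF- added on days 1 and 4 and in the 8 h set. CD45+ DAPI- cells were also selected on days 1 and 4. Where sets differ, day, age, gate and DT labelling cannot be told apart. Day 4 and day 1 share age and gate, and differ in day and in the DT time of the titles.

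The subset names follow the sample titles, because the labels' marker field gives MHCII- everywhere except in day 0 MHCII+. Summed intensity of 4 MHC class II genes was 46940 to 60115 on arrays titled MHCII+ and 2071 to 23284 on those titled MHCII-, with no overlap. All 8 macrophage markers measured passed the level for testing, and their summed intensity lay between 49467 and 64330 on every array. Several libraries stood apart. Array 1 of day 0 MHCII- carried neutrophil transcripts (S100a8 at log2 intensity 11.54 against 7.17 in array 2, Ly6g at 9.22 against 5.93). Array 1 of the 8 h Foxp3.DTR+ MHCII+ group carried T cell receptor transcripts (Cd3g at 10.83 against 5.62 and 5.58). Array 3 of the 24 h Foxp3.DTR- MHCII+ group was high in granulocyte markers, with mean log2 levels of 7.48 for eosinophil markers against 6.66 to 6.99 in the other 3 and of 7.36 for neutrophil markers against 6.38 to 6.44. Array 3 of the 24 h Foxp3.DTR+ MHCII- group had a mean level of 7.67 for dendritic cell markers against 7.15 in both others. Array 2 of day 0 MHCII+ was higher than array 1 in mean mitotic level (8.79 against 8.28). Results that rest on these arrays are given with and without them. RNA came from pooled sorted cells, so a smaller share of dividing cells and less RNA per dividing cell cannot be told apart in any comparison. All levels and differences below are in log2 intensity, and each adjusted p comes from limma with Benjamini-Hochberg adjustment over the 11074 genes tested (threshold 0.05).

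Across the 18 groups the lowest mean of a gene fell in a day 1 MHCII- group for 33 of 36 genes, counting both genotypes. The highest mean fell in the day 7 24 h Foxp3.DTR- MHCII- group for 17 genes, in day 4 MHCII- for 7 and in day 0 MHCII+ for 6. The mean level of the 23 mitotic genes was 8.88 in the 24 h Foxp3.DTR- MHCII- group (arrays 8.75 to 8.97) and 8.79 in day 4 MHCII- (8.76 to 8.83). These neighbours in the order overlapped. Next came day 0 MHCII+ at 8.53 (8.28 and 8.79), the 24 h Foxp3.DTR+ MHCII- group at 8.52 (8.47 to 8.57) and the 8 h MHCII- groups at 8.49 (8.10 to 8.87) and 8.43 (8.31 to 8.64). Day 7 MHCII+ groups followed, from 8.31 (7.70 to 9.09, 8 h Foxp3.DTR+) down to 7.63 (7.44 and 7.82, Foxp3.DTR- with no DT time), with day 4 MHCII+ at 8.04 (7.90 and 8.18) and day 0 MHCII- at 7.86 (7.71 and 8.00) among them. Each of these groups overlapped the next in the range of its arrays. The day 1 MHCII+ groups were near the lower end, at 7.69 (7.53 and 7.85) and 7.63 (7.45 and 7.82). At the foot were day 1 MHCII- at 6.87 in Foxp3.DTR- (6.81 and 6.93) and 6.83 in Foxp3.DTR+ (6.80 and 6.87), which overlapped each other and no other group. The 12 S phase genes also had their lowest mean levels in day 1 MHCII-, at 8.43 (8.42 and 8.43) and 8.44 for Foxp3.DTR- and Foxp3.DTR+. The order of the other groups was not that of the mitotic genes. The day 1 MHCII+ groups stood at 9.20 (9.05 and 9.35) and 9.19, among the upper groups and level with day 0 MHCII+ at 9.22 (9.12 and 9.32).

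**Figure D1:**
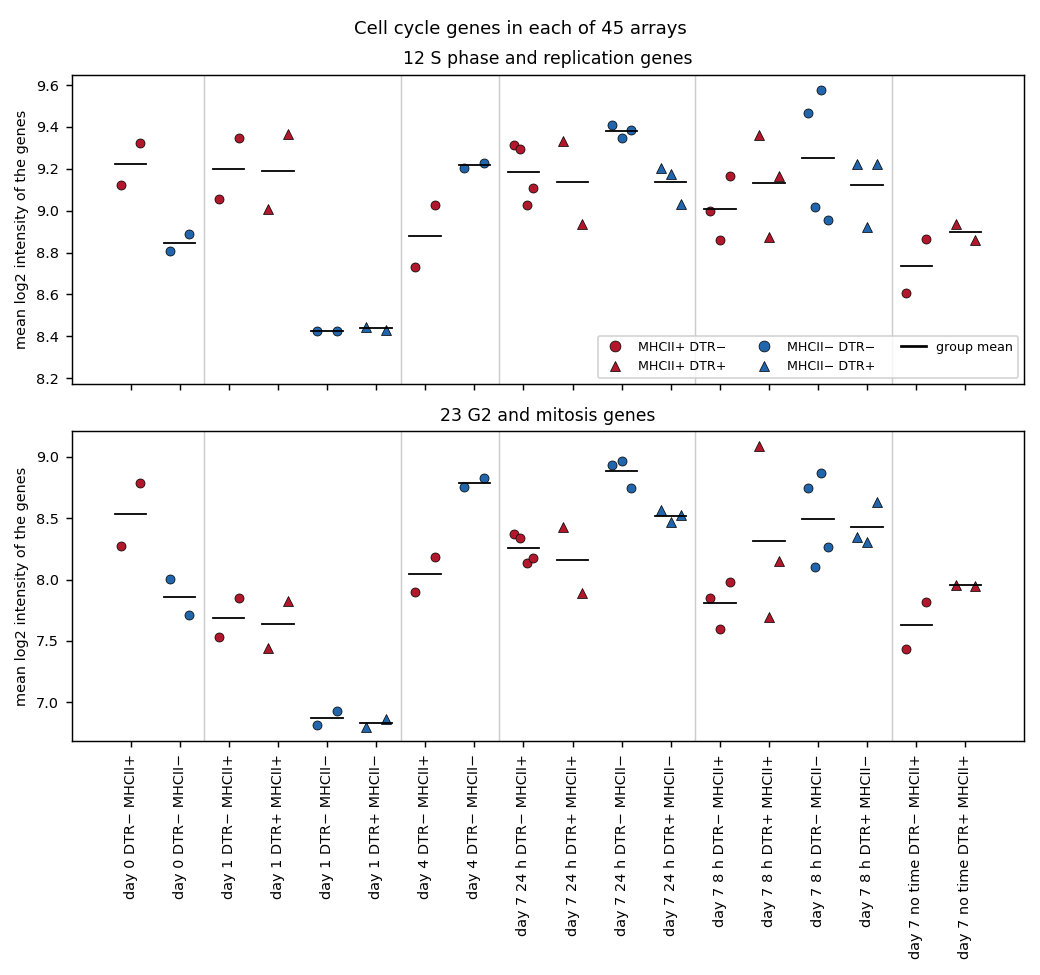
Mean log2 intensity of the S phase genes and of the G2 and mitosis genes on each of the 45 arrays, by group; each point is 1 array. The day 1 MHCII- arrays are lowest for both classes, and day 1 MHCII+ is low for mitosis genes (7.53 to 7.85 in Foxp3.DTR-) but not for S phase genes (9.05 to 9.35).

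The genes varied by different amounts. The range between the highest and lowest group mean was 2.04 in the median mitotic gene and 1.09 in the median S phase gene, with the widest at 4.52 for Ccna2 (cyclin A2, which partners Cdk2 and Cdk1 through S and G2) and the narrowest at 0.39 for Pcna (the replication clamp). The narrowest mitotic range was 0.89 for Aurka (a spindle pole kinase). Mcm2, Mcm3 and Mcm4 were the 3 genes with their highest mean in day 1 Foxp3.DTR- MHCII+ cells, while Ccnd1 was highest in day 1 Foxp3.DTR+ MHCII+ cells. Tk1 (thymidine kinase), at 8.20 in day 0 MHCII-, was 1 of the 3 genes with their lowest mean elsewhere. This rests on the choice of probe set, since the other probe set of Tk1 was lowest in day 1 Foxp3.DTR+ MHCII- cells (6.84, against 7.69 in day 0 MHCII-). The others were Bub1b and Aurka, lowest at 7.62 and 7.72 in the day 7 Foxp3.DTR- group with no DT time.

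**Figure D2:**
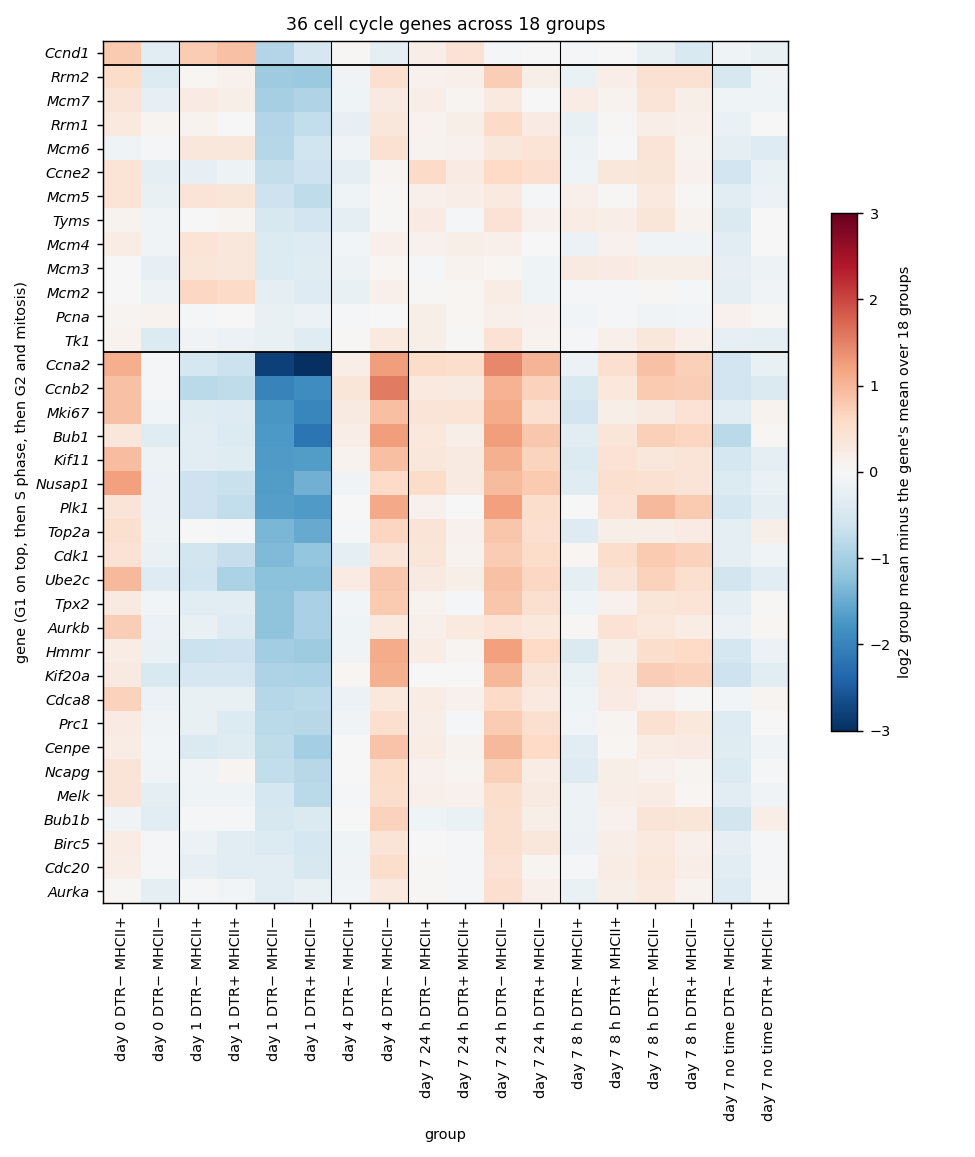
Group mean log2 intensity of each of the 36 genes relative to that gene's own mean over the 18 groups; rows are genes (G1, S phase, then G2 and mitosis) and columns are groups. The 2 day 1 MHCII- columns are low from top to bottom for all but a few rows, and the Mcm rows are high in the day 1 MHCII+ columns.

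On day 1 the mitotic genes were lower than on day 0 in both subsets. In MHCII+ cells 12 of 23 mitotic genes fell and none rose, and of 12 S phase genes 1 rose (Mcm2) and none fell. In MHCII- cells 13 mitotic and 4 S phase genes fell and none rose. Of all genes tested 35.6% changed in MHCII+ cells (18.6% higher, 17% lower) and 25.6% in MHCII- cells (16.2% lower). The median change of the mitotic genes was -0.78 in MHCII+ and -0.85 in MHCII- cells, and that of the S phase genes -0.12 and -0.38, beside -0.01 and -0.03 over all genes tested.

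Mki67 encodes the Ki-67 protein that coats mitotic chromosomes and is the usual marker of dividing cells. In MHCII- cells Mki67 stood at 9.09 and 8.95 on day 0 and at 7.21 and 7.48 on day 1. In MHCII+ cells it stood at 9.51 and 10.41 on day 0 and at 8.49 and 8.96 on day 1. Every day 1 array was below every day 0 array of its subset. Mki67 fell by 1.67 ± 0.34 (SE; adjusted p = 0.0003, limma) in MHCII- cells and 2.36-fold (SE 0.34 in log2; adjusted p = 0.0046) in MHCII+ cells. Ccna2 stood at 9.46 and 8.87 on day 0 and at 6.36 and 6.50 on day 1 in MHCII- cells, and at 9.85 and 10.80 against 8.42 and 8.97 in MHCII+ cells. The day 1 arrays were again lower without overlap. Ccna2 fell by 2.74 ± 0.36 in MHCII- cells (6.67-fold; adjusted p = 3.1e-07) and by 1.62 ± 0.36 in MHCII+ cells (3.08-fold; adjusted p = 0.0006). Its day 1 MHCII- arrays, like those of Mki67, lay below the level for testing (7.57), so the fall in MHCII- cells is set against values at the low end of the scale.

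Other mitotic genes fell in both subsets. Ccnb2 (cyclin B2, a partner of Cdk1) fell by 1.96 ± 0.31 in MHCII- cells and in MHCII+ cells it fell by 1.69 ± 0.31. Nusap1 (a spindle microtubule protein) fell by 1.49 and 1.85, and Kif11 (the kinesin that separates spindle poles) by 1.56 and 1.27, in the same order. Ube2c (which marks mitotic cyclins for destruction) had its larger fall in MHCII+ cells, by 1.57 ± 0.30 (adjusted p = 0.00012). Bub1 (the spindle checkpoint kinase) fell by 1.36 in MHCII- cells. Top2a (topoisomerase, which untangles DNA) stood at 8.01 and 7.92 on day 0 and at 6.75 and 6.72 on day 1 in MHCII- cells, where it fell by 1.22 ± 0.40 (adjusted p = 0.021). In MHCII+ cells its arrays stood at 8.22 and 8.96 against 7.94 and 8.29, overlapping, with a change of -0.47 (adjusted p = 0.37). In day 1 MHCII- cells 18 of the 23 mitotic genes had all arrays below the level for testing (7.57). The day 1 means of Nusap1 (6.25) and Kif11 (6.58) lay below it, as did Bub1 and Top2a. The sizes of these falls in MHCII- cells are therefore set against values at the low end of the scale.

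The S phase genes that fell in MHCII- cells were Rrm1 (the large subunit of ribonucleotide reductase), by 0.95 ± 0.21 (adjusted p = 0.00094), Mcm6 by 0.80, Mcm7 by 0.75 and Pcna by 0.32 ± 0.09. Rrm2, the regulated small subunit of ribonucleotide reductase, stood at 8.23 and 8.15 on day 0 and at 7.47 and 7.60 on day 1 in MHCII- cells, with a change of -0.66 ± 0.28 (adjusted p = 0.082). In MHCII+ cells Rrm2 changed by -0.50 ± 0.28 (adjusted p = 0.16). Mcm2 rose in MHCII+ cells, from 9.0 and 9.29 to 9.61 and 9.92, by 0.62 ± 0.19 (adjusted p = 0.011). Mcm5 changed by -0.02 in MHCII+ cells (adjusted p = 0.95) and by -0.40 in MHCII- cells (adjusted p = 0.13). Ccnd1 (cyclin D1, which starts the G1 programme) changed by -0.03 in MHCII+ cells and by -0.53 in MHCII- cells (adjusted p = 0.94 and 0.1).

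The day 1 against day 0 counts rest on single arrays. For MHCII+ cells 13 genes were called with all arrays, 5 without day 0 array 2 and 7 without day 1 array 1. For MHCII- cells 17 were called with all arrays, 6 without day 0 array 1 (the array with neutrophil transcripts), 9 without day 1 array 1 and 11 without day 1 array 2. Summed intensity of 4 monocyte markers moved with the fall. It was 3691 to 4935 on day 0 and 19915 to 21814 on day 1 in MHCII- cells (4 of 4 higher), and 6575 to 8786 and then 14117 to 16640 in MHCII+ cells (2 of 4 higher). The 6 dendritic cell markers went the other way in MHCII+ cells, with sums of 12786 to 14861 on day 0 and 6519 to 7083 on day 1 (4 of 4 tested lower). So did the 7 T cell markers, with 3666 to 4037 and then 1261 to 1280 (2 of 4 tested lower). In MHCII- cells the dendritic cell sum was 3966 to 4827 on day 0 and 692 to 729 on day 1 (2 of 4 tested lower). There the fibroblast marker sum was 2305 to 2669 and then 1266 to 1296 (1 of 4 tested lower), and the satellite cell and muscle marker sum 2057 to 2307 and then 1426 to 1597 (1 of 6 tested lower). The neutrophil marker sum was 1305 to 8444 on day 0 and 2226 to 2698 on day 1 in MHCII- cells. In MHCII+ cells it was 495 to 512 and then 835 to 840. Cd3g lay at 5.70 and 5.74 on day 0 and at 5.89 and 5.88 on day 1 in MHCII+ cells, below the level for testing. Their part in the changes was not tested.

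Between day 1 and day 4 the set rose in MHCII- cells. All 23 mitotic genes and 7 of 12 S phase genes passed the test as higher and none as lower, against 24.2% of all genes tested (16.9% higher). On all 36 genes both day 4 arrays stood above both day 1 arrays, which was so for 43.3% of all genes. The median rise was 2.00 for mitotic genes and 0.61 for S phase genes, beside 0.05 over all genes tested.

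Ccna2 went from 6.36 and 6.50 on day 1 to 10.53 and 10.44 on day 4, and Ccnb2 from 8.06 and 8.35 to 11.77 and 11.75. Both day 4 arrays lay close together and far above both day 1 arrays. Ccna2 rose by 4.05 ± 0.36 (16.6-fold; adjusted p = 1.4e-10, limma) and Ccnb2 by 3.55 ± 0.31 (11.8-fold; adjusted p = 1.7e-10). Bub1 went from 5.77 and 6.14 to 8.88 and 8.98, a rise of 2.98 ± 0.45 (adjusted p = 6.4e-06). Plk1 (the kinase that drives entry into mitosis) went from 6.39 and 7.03 to 9.52 and 9.46, a rise of 2.78 ± 0.32. The day 1 arrays of Ccna2, Bub1 and Plk1 lay below the level for testing (7.57), as did both day 1 arrays of 18 of the 23 mitotic and 2 of the 12 S phase genes in all, so these rises are set against values at the low end of the scale. Mki67 and Top2a are also among the 18. Mki67 went from 7.21 and 7.48 to 9.97 and 10.02 and rose by 2.65 ± 0.34 (6.26-fold; adjusted p = 2.9e-07). Top2a went from 6.75 and 6.72 to 8.67 and 8.86 and rose by 2.03 ± 0.40 (adjusted p = 0.00023). Aurka had the smallest mitotic rise, 0.61 ± 0.17, and Cdc20 (the activator of anaphase) rose by 0.87 ± 0.18.

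Among S phase genes, Rrm2 went from 7.47 and 7.60 on day 1 to 9.03 and 9.13 on day 4 and rose by 1.54 ± 0.28 (2.91-fold; adjusted p = 7.3e-05). Mcm6 went from 8.38 and 8.51 to 9.78 and 9.74, a rise of 1.31 ± 0.23 (adjusted p = 6.3e-05). Rrm1 and Mcm7 rose by 1.21 ± 0.21 and 1.25 ± 0.25. The arrays of the 2 days were well separated for these 4 genes. Mcm5 went from 8.51 and 8.49 to 9.16 and 9.15 and rose by 0.66 ± 0.19 (adjusted p = 0.01), Mcm4 by 0.57 and Tk1 by 0.51. The size of the Tk1 rise depends on the probe set. Its group means went from 8.40 to 8.91 in the one used and from 7.07 to 8.42 in the other. The 5 that missed the threshold were Mcm2 (0.43), Mcm3 (0.47), Pcna (0.22), Tyms (0.51, thymidylate synthase) and Ccne2 (0.81, cyclin E2), each with day 4 arrays above day 1 arrays and adjusted p between 0.056 and 0.1. Ccnd1 stood at 9.41 and 9.61 on day 1 and at 10.12 and 10.12 on day 4 (0.61 ± 0.24, adjusted p = 0.059).

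The count of 30 was 25 or 26 with any 1 of the 4 arrays left out, and 24 of the 29 genes above the level on the mean over all arrays were called. Centring each array on its median gave 26, all higher, with a shift of -0.12 in the median of all genes. Monocyte marker sums moved over the same days, at 19915 to 21814 on day 1 and 6503 to 10171 on day 4 (2 of 4 lower). So did neutrophil marker sums, at 2226 to 2698 on day 1 and 894 to 904 on day 4, with no overlap. The sum of 7 satellite cell and muscle markers was 1426 to 1597 on day 1 and 2304 to 2409 on day 4 (2 of 6 tested higher), and that of 6 fibroblast markers 1266 to 1296 and 1780 to 1850 (3 of 4 tested higher). The T cell marker sum was 894 on both day 1 arrays and 1502 to 1530 on day 4 (1 of 4 tested higher), and the B cell marker sum 535 to 586 and 1088 to 1148 (1 of 1 tested higher). The defining markers Cd3g (5.65 and 5.54 against 5.64 and 5.63) and Ms4a1 (5.09 and 5.28 against 5.11 and 4.93) lay below the level for testing on both days, and Pax7, the satellite cell factor, stood at 7.52 and 7.32 against 7.82 and 7.62. The part of these markers in the rise was not tested.

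Promoters are shown for the S phase genes and the mitotic genes with the largest day 1 to day 4 rise that have an entry, because members of both classes moved together. Sequences are from RefSeq (GRCm38.p6), 250 bases before to 50 after the annotated start, read 5′ to 3′ on the gene's strand; 29 of the 36 genes matched an entry by symbol. Capitals mark letters found on either strand from 3 motifs named for their binding factors or role. These are the E2F letters TTTCCCGC, TTTCGCGC, TTTGGCGC or TTTGCCGC, the cell cycle genes homology region (CHR) letters TTTGAA, and the CCAAT letters (ATTGG when on the other strand). Rrm2 lies at chr12:24708004-24708303 on the plus strand, Mcm6 at chr1:128359656-128359955, Ccnb2 at chr9:70421505-70421804 and Bub1 at chr2:127831810-127832109, these 3 on the minus strand.
Rrm2: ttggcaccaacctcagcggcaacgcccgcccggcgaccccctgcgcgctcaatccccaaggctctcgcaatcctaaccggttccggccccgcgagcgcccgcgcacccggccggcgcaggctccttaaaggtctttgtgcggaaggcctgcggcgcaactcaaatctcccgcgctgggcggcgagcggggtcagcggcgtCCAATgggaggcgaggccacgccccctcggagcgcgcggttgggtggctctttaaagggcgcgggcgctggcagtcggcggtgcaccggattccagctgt
Mcm6: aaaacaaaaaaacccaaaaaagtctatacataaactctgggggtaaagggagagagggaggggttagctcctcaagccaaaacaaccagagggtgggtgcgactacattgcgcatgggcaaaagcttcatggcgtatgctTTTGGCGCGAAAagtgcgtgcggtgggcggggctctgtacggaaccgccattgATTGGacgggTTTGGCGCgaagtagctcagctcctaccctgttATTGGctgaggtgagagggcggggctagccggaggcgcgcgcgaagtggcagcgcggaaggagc
Ccnb2: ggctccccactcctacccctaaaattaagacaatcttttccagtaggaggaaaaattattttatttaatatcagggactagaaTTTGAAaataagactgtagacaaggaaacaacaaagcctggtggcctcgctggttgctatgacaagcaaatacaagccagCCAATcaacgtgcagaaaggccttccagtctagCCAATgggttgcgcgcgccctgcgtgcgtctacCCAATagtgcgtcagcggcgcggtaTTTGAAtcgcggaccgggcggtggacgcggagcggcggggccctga
Bub1: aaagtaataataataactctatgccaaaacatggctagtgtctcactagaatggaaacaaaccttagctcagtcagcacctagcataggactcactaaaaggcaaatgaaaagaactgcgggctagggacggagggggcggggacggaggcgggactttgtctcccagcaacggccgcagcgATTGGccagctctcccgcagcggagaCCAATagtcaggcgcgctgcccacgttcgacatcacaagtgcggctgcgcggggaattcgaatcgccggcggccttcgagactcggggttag
The Mcm6 window held 3 E2F matches, of which the first 2 overlap on opposite strands, and 2 CCAAT matches. The Ccnb2 window held 2 CHR and 3 CCAAT matches, the Bub1 window 2 CCAAT matches and the Rrm2 window 1 CCAAT match. Over the promoters of this length, E2F letters were in 4 of 10 S phase genes, 2 of 19 mitotic genes and 2.32% of all 27025 genes. CHR letters were in 1 of 10 S phase genes, 14 of 19 mitotic genes and 18.1% of all genes. CCAAT letters were in 8 of 10, 16 of 19 and 37.9%. These are counts of letters and describe the windows only.

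In MHCII+ cells the same interval looked different. Of 36 genes 1 rose (Ccnb2) and 2 fell (Mcm2 and Ccnd1), against 15.4% of all genes tested (7.77% higher, 7.61% lower). Mitotic genes had a median change of 0.28 and S phase genes one of -0.37, beside -0.01 over all genes. Mcm2 stood at 9.61 and 9.92 on day 1 and at 8.65 and 9.18 on day 4, so the arrays did not overlap, and it fell by 0.85 ± 0.19 (adjusted p = 0.002, limma). Ccnd1 stood at 11.03 and 11.29 and then at 10.30 and 10.55, and fell by 0.74 ± 0.24 (adjusted p = 0.032). Ccnb2 stood at 9.24 and 9.56 and then at 10.66 and 10.47, and rose by 1.17 ± 0.31 (adjusted p = 0.0093). Mki67 stood at 8.49 and 8.96 and then at 9.23 and 9.52, with a change of 0.64 ± 0.34 (adjusted p = 0.21). Top2a changed by -0.05, Rrm2 by -0.15 and Mcm5 by -0.52 ± 0.19, with adjusted p of 0.96, 0.78 and 0.06. No gene was called without day 4 array 2 and 1 without day 1 array 2, and a fit on the compared arrays alone called 7. The monocyte marker sum was 14117 to 16640 on day 1 and 9293 to 10843 on day 4 (1 of 4 tested lower). The neutrophil sum was 835 to 840 and then 560 to 609, and the satellite cell and muscle sum 1426 to 1474 and then 2439 to 2503 (2 of 6 tested higher). Their part was not tested.

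**Figure D3:**
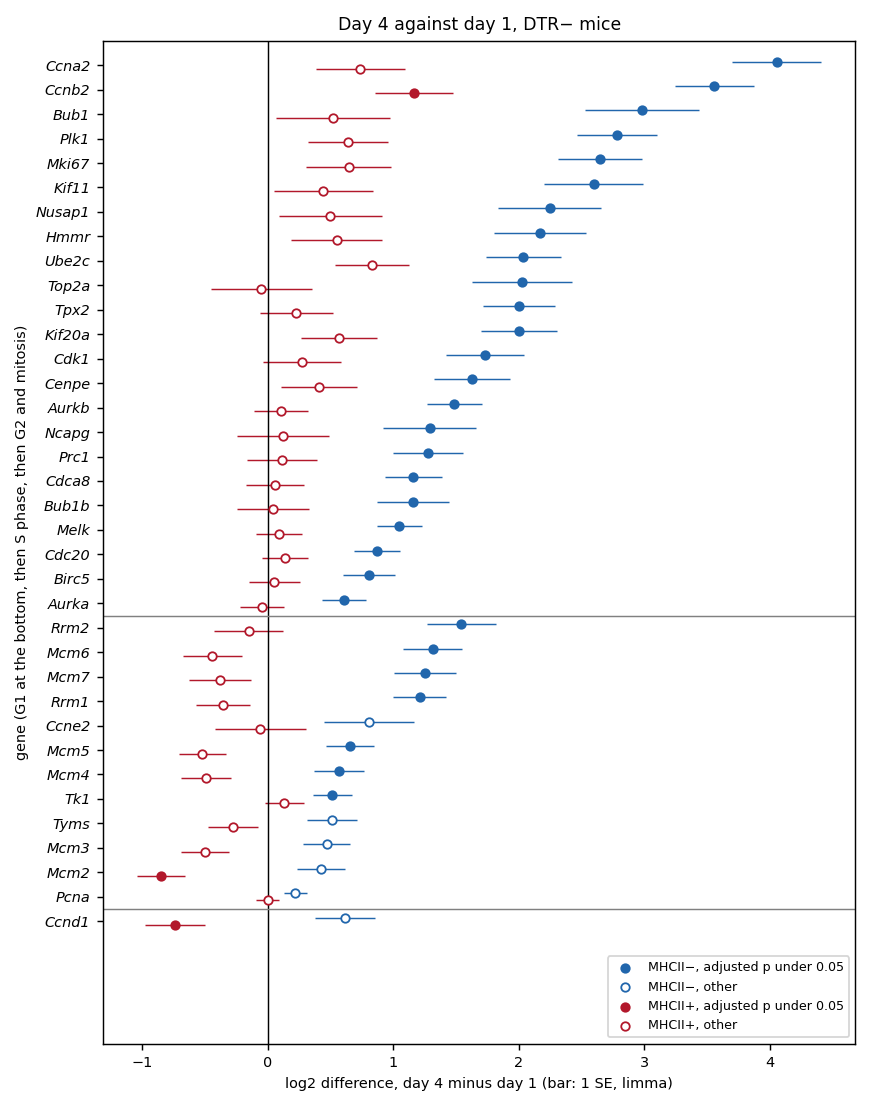
Day 4 minus day 1 log2 difference of each gene with its SE, for MHCII- and MHCII+ cells of Foxp3.DTR- mice; filled points have a limma adjusted p under 0.05. In MHCII- cells every gene lies to the right of 0 and 30 are filled; in MHCII+ cells the points lie about 0 with 3 filled.

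The difference between the subsets in this interval was tested directly. As MHCII+ minus MHCII- on day 4 less the same on day 1, all 36 genes were below 0 and 15 passed the test, against 1.23% of all genes tested (1.11% below 0). The 36 were measured on the same few arrays, so their shared sign is not 36 separate results. The 15 were 8 of the 23 mitotic genes, 6 of the 12 S phase genes and Ccnd1. The difference was -3.31 ± 0.50 for Ccna2 (adjusted p = 0.00011, limma), -2.39 ± 0.44 for Ccnb2 (adjusted p = 0.0021) and -2.0 ± 0.48 for Mki67 (adjusted p = 0.023). For S phase genes it was -1.75 ± 0.33 for Mcm6 (adjusted p = 0.0025), -1.69 for Rrm2, -1.63 for Mcm7 and -1.57 for Rrm1. Mcm5 gave -1.18 and Ccnd1 gave -1.35 (adjusted p = 0.017 and 0.036), while Top2a gave -2.08 (adjusted p = 0.059). Medians were -1.43 for mitotic and -1.12 for S phase genes, beside -0.08 over all genes. The count was 7 without either day 1 MHCII- array, 4 without day 1 MHCII+ array 2, 6 without either day 4 MHCII- array and 3 without day 4 MHCII+ array 2. It was 32 with array weights and 32 in a fit on the compared arrays alone.

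**Figure D4:**
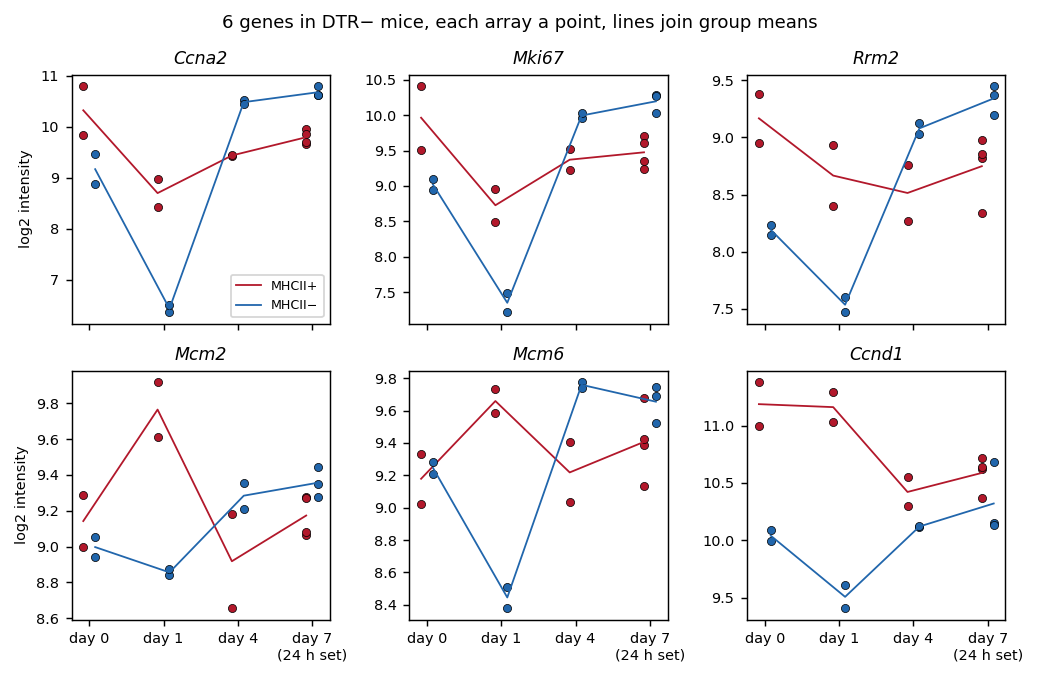
Log2 intensity of Ccna2, Mki67, Rrm2, Mcm2, Mcm6 and Ccnd1 on each Foxp3.DTR- array at days 0, 1, 4 and 7 (24 h set), by subset; each point is 1 array. In MHCII- cells Ccna2 goes from 8.87 and 9.46 to 6.36 and 6.50 and then above 10, while Mcm2 in MHCII+ cells is highest on day 1 (9.61 and 9.92).

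Within a day, the genes that passed the test between subsets were higher in MHCII+ cells on days 0 and 1. On day 0, 12 of 36 genes were higher in MHCII+ cells and none lower, against 8.44% of all genes higher (19% in either direction). They were 8 mitotic genes, 3 S phase genes and Ccnd1. Nusap1 stood at 8.81 and 9.47 in MHCII+ and at 7.82 and 7.66 in MHCII- cells, a difference of 1.40. Ube2c (1.36), Ccna2 (1.16) and Mki67 (0.94, adjusted p = 0.045) followed, with the arrays of MHCII+ cells above those of MHCII- cells for each. Of S phase genes, Rrm2 was higher by 0.97 (8.95 and 9.38 against 8.23 and 8.15; adjusted p = 0.012), Mcm5 by 0.64 and Tk1 by 0.53. Ccnd1 was higher by 1.15 ± 0.24 (11.38 and 10.99 against 10.09 and 9.99; adjusted p = 0.00065). Top2a differed by 0.63 ± 0.40 (adjusted p = 0.29).

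The day 0 count fell to 1 without MHCII+ array 2, to 7 without MHCII- array 1 (the array with neutrophil transcripts) and to 4 without MHCII- array 2. Markers of other cells differed as well. The T cell marker sum was 3666 to 4037 in MHCII+ and 1115 to 1128 in MHCII- cells, mostly Cd2 (11.38 and 11.62 against 8.10 and 8.03), with Cd3g at 5.36 to 5.74 on all 4 arrays. The dendritic cell sum was 12786 to 14861 against 3966 to 4827 (3 of 4 tested higher). The B cell sum was 1142 to 1889 against 845 to 960, with Ms4a1 at 7.77 and 5.97 against 5.37 and 5.30. The neutrophil sum was 495 to 512 against 1305 to 8444. The part of these in the differences was not tested.

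On day 1, 13 genes were higher in MHCII+ cells of Foxp3.DTR- mice, against 2.03% of all genes higher (2.45% in either direction), and 13 in Foxp3.DTR+ mice, against 1.72% (2.26%). None was lower. Of these, 10 were in both lists, 76.9% of each: Ccna2, Mki67, Rrm2, Mcm2 to Mcm7 and Ccnd1. The same overlap over all genes called was not counted. Here S phase genes made up 8 of the 13 in Foxp3.DTR- and 7 of the 13 in Foxp3.DTR+ mice, and the median differences of that class were 0.86 and 0.71, beside 0.03 and 0.00 over all genes.

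The 6 MCM genes encode the subunits of 1 helicase, and all 6 were in both lists. Mcm6 stood at 9.58 and 9.73 in MHCII+ and at 8.38 and 8.51 in MHCII- cells of Foxp3.DTR- mice, and at 9.46 and 9.84 against 8.63 and 8.78 in Foxp3.DTR+ mice. Mcm5 stood at 9.22 and 9.81 against 8.51 and 8.49, and at 9.33 and 9.66 against 8.45 and 8.31. No MHCII- array reached an MHCII+ array for either gene in either genotype. The differences were 1.21 ± 0.23 and 0.94 for Mcm6 and 1.02 ± 0.19 and 1.12 ± 0.19 for Mcm5 (adjusted p for Mcm5 0.00063 and 0.00017, limma). Mcm7 differed by 1.25 ± 0.25 and 1.07, Mcm2 by 0.91 ± 0.19 and 0.97, and Mcm3 and Mcm4 by 0.71 to 0.81. Rrm2 stood at 8.40 and 8.93 against 7.47 and 7.60 and at 8.48 and 8.99 against 7.49 and 7.51, 2.19-fold and 2.36-fold higher (SE 0.28 in log2 for both).

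Ccna2 had the largest day 1 difference among the genes in both genotypes. It stood at 8.42 and 8.97 in MHCII+ against 6.36 and 6.50 in MHCII- cells in Foxp3.DTR- mice, and at 8.20 and 8.98 against 6.25 and 6.06 in Foxp3.DTR+ mice. The differences were 2.27 ± 0.36 and 2.43 ± 0.36 (adjusted p = 4.7e-05 and 1.5e-05, limma). All 4 MHCII- arrays lay below the level for testing (7.57), so the size of this difference and its place in the order are set against values at the low end of the scale. Ccnd1 stood at 11.03 and 11.29 against 9.41 and 9.61, and at 11.14 and 11.41 against 9.89 and 9.86. It was higher by 1.65 ± 0.24 and 1.40 ± 0.24. Mki67 was higher by 1.38 ± 0.34 and 1.56 ± 0.34. Top2a was higher by 1.48 in Foxp3.DTR+ mice (adjusted p = 0.037), and in Foxp3.DTR- mice it differed by 1.38 ± 0.40 (adjusted p = 0.059).

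Leaving out MHCII+ array 2 gave 3 calls in each genotype. Leaving out MHCII- array 1 or 2 gave 7 and 6 calls in Foxp3.DTR- and 5 and 4 in Foxp3.DTR+ mice, while array weights gave 26 and 25. Dendritic cell markers moved with the difference on day 1, with sums of 6519 to 7083 in MHCII+ and 692 to 729 in MHCII- cells of Foxp3.DTR- mice (3 of 4 tested higher). Monocyte markers were lower by sum in MHCII+ cells (14117 to 16640 against 19915 to 21814). Neutrophil marker sums were also lower in MHCII+ cells, at 835 to 840 against 2226 to 2698 in Foxp3.DTR- mice. In Foxp3.DTR+ mice they were 886 to 972 against 2504 to 3503. T cell marker sums in Foxp3.DTR- mice were 1261 to 1280 against 894, with Cd3g at 5.89 and 5.88 against 5.65 and 5.54. The part of these markers was not tested.

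On day 4 the direction between subsets was the opposite. All 23 mitotic and all 12 S phase genes had both MHCII+ arrays below both MHCII- arrays, which was so for 27.4% of all genes tested. Only Ccnb2 passed the test, at 10.66 and 10.47 in MHCII+ against 11.77 and 11.75 in MHCII- cells (-1.19 ± 0.31, adjusted p = 0.034, limma), where 2.12% of all genes were called (1% lower), and 19 of the 36 had an unadjusted p under 0.05. Mki67 stood at 9.23 and 9.52 against 9.97 and 10.02, a difference of -0.62 ± 0.34 (adjusted p = 0.63). Rrm2 stood at 8.27 and 8.76 against 9.03 and 9.13, a difference of -0.57 ± 0.28 (adjusted p = 0.53). Top2a and Mcm5 differed by -0.70 and -0.16, and Ccnd1 by 0.30 with its MHCII+ arrays above. Ccnb2 lost its call without either MHCII- array, without MHCII+ array 2 and after quantile normalization, and a fit on the compared arrays alone called 12 genes. The dendritic cell marker sum differed as well, at 6471 to 7894 in MHCII+ and 826 to 1017 in MHCII- cells on day 4 (3 of 4 tested higher). The T cell sum was 1780 to 1901 against 1502 to 1530 (1 of 4 tested higher) and the neutrophil sum 560 to 609 against 894 to 904 (1 of 5 tested lower). The part of these markers was not tested.

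On day 7 the genes that passed the test between subsets, without a replicate block, were mitotic and lower in MHCII+ cells of Foxp3.DTR- mice. In the 24 h set 5 of 36 were lower, against 5.23% of all genes changed (3.19% lower). They were Plk1, Kif20a (a kinesin of cytokinesis), Hmmr, Tpx2 (a spindle assembly factor) and Aurka. Plk1 stood at 8.66, 8.59, 8.11 and 8.59 in MHCII+ and at 9.47, 9.57 and 9.74 in MHCII- cells. Kif20a stood at 8.10, 7.97, 7.58 and 7.83 against 8.87, 9.06 and 8.73. All MHCII+ arrays were below all MHCII- arrays for both. The differences were -1.10 ± 0.24 (adjusted p = 0.0048, limma) and -1.01 ± 0.23 (adjusted p = 0.0067), and those of the other 3 were -0.99, -0.73 and -0.48. Hmmr reached the level for testing only through the mean of this MHCII- group (7.58), the group in which it was then called higher. With genes tested on their mean over all arrays, which leaves Hmmr out, 4 were called. Mki67 differed by -0.72 (adjusted p = 0.096), Rrm2 by -0.59 ± 0.21, Top2a by -0.43, Mcm5 by -0.16 and Ccnd1 by 0.27, none of which passed. Left-out arrays moved the count to 2 and 1 (MHCII- arrays 1 and 2) and to 3, 8 and 2 (MHCII+ arrays 1, 2 and 3, where array 3 is the one with the granulocyte markers). Marker sums differed between these groups. The dendritic cell sum was 3813 to 6195 in MHCII+ and 1203 to 1282 in MHCII- cells (3 of 4 tested higher), and the satellite cell and muscle sum 3280 to 5404 against 2409 to 2894 (3 of 6 tested higher). The T cell sum was 2224 to 2528 against 1755 to 1828 (1 of 4 tested higher). Their part was not tested.

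In the 8 h set 6 were lower in Foxp3.DTR- MHCII+ cells, against 2.21% of all genes changed (0.858% lower). Ccnb2 stood at 9.85, 9.57 and 9.88 in MHCII+ and at 11.31, 10.63, 11.13 and 10.90 in MHCII- cells, with no overlap. The difference was -1.23 ± 0.24 for Ccnb2 (adjusted p = 0.0019, limma), -1.05 for Ccna2, -0.96 each for Ube2c, Plk1 and Kif20a, and -0.49 for Aurka. Mki67 differed by -0.84 ± 0.26 and Rrm2 by -0.67 ± 0.21 (adjusted p = 0.089 and 0.11). Same-numbered arrays of these subsets deviated together, and with the replicate number as a block 9 genes were called, with Cdk1, Mcm6 and Tk1 added (adjusted p = 0.016, 0.046 and 0.016) and Mki67 and Rrm2 at adjusted p of 0.195 and 0.076. The count was 1, 10 and 2 without MHCII- array 1, 2 or 3, and 3 and 1 without MHCII+ array 1 or 2. Aurka, Kif20a and Plk1 were in the lists of both sets (60% of the 24 h list and 50% of the 8 h list), and the overlap over all genes called was not counted. In Foxp3.DTR+ mice no gene passed the test in either set with limma, where 1.37% (24 h) and 7.98% (8 h) of all genes did; 1 gene in each had an unadjusted p under 0.05. In the 8 h set 3 passed without MHCII+ array 1, and in the 24 h set none passed without MHCII- array 3. In the 8 h set of Foxp3.DTR- mice the dendritic cell marker sum was 3049 to 4696 in MHCII+ and 1267 to 2776 in MHCII- cells (2 of 4 tested higher), and its part was not tested.

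**Figure D5:**
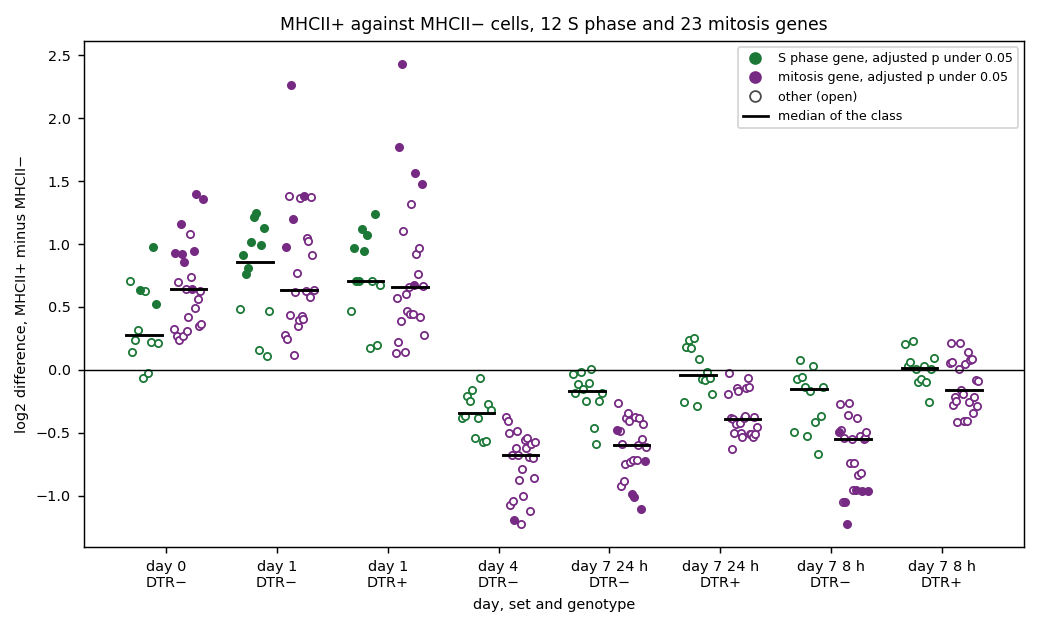
MHCII+ minus MHCII- log2 difference of each S phase (green) and mitosis (purple) gene in the 8 subset comparisons; black marks are class medians and 0 means equal levels. All points lie above 0 on day 1 and below 0 on day 4, where the medians are -0.34 and -0.68; on day 0 all but Mcm6 and Pcna lie above 0.

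From day 4 to day 7 no gene of the set changed by the test. With limma none of 36 was called for the 24 h set in MHCII+ cells (2.46% of all genes called; 4 genes at unadjusted p under 0.05) or in MHCII- cells (1.17%; 1 gene). Without array 3 of the 24 h MHCII+ group the first of these counts was also 0. None was called for the 8 h set in MHCII+ (16.2%; 4 genes) or MHCII- cells (4.24%; 3 genes). Mki67 in MHCII- cells stood at 9.97 and 10.02 on day 4 and at 10.29, 10.28 and 10.03 in the 24 h set, a change of 0.20 ± 0.31. The same change was 0.26 ± 0.25 for Rrm2, 0.17 ± 0.36 for Top2a and 0.27 ± 0.17 for Mcm5.

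Day 4 and uninjured day 0 differed by subset. In MHCII- cells 13 genes were higher on day 4 and none lower (7.22% of all genes changed, 3.91% higher): 11 mitotic genes, Rrm2 and Tk1. This count includes any called gene that entered the tests only through groups in which it was high. Bub1 stood at 7.61 and 7.02 on day 0 and at 8.88 and 8.98 on day 4 and was higher by 1.62. Ccnb2 stood at 10.45 and 9.88 and then at 11.77 and 11.75 and was higher by 1.59 ± 0.31 (adjusted p = 0.00084, limma). Kif20a (1.54 ± 0.30) and Plk1 (1.32) were next, and Rrm2 was higher by 0.89 (adjusted p = 0.045) and Tk1 by 0.72. Mki67 (0.98, adjusted p = 0.076), Top2a (0.80), Mcm5 (0.26) and Ccnd1 (0.08) did not pass. The count was 10 without day 0 array 1 (the array with neutrophil transcripts), 3 without day 0 array 2, 4 without either day 4 array, and 26 in a fit on the compared arrays alone. The neutrophil marker sum was 894 to 904 on day 4 and 1305 to 8444 on day 0 (4 of 5 tested lower), and the dendritic cell sum 826 to 1017 and 3966 to 4827 (1 of 4 tested lower). Their part was not tested.

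In MHCII+ cells no gene was higher on day 4 than on day 0 and 5 were lower (16.7% of all genes changed, 8.6% lower). They were Nusap1 (-1.35), Aurkb and Cdca8 (-0.87 and -0.86, both of the chromosomal passenger complex), Ccnd1 (-0.76) and Mcm5 (-0.54). Mki67 (-0.59), Rrm2 (-0.65) and Top2a (-0.52) did not pass. None was called without day 4 array 2, 1 without day 0 array 2 and 3 without day 4 array 3. The dendritic cell marker sum was 6471 to 7894 on day 4 and 12786 to 14861 on day 0 (1 of 4 tested lower), and its part was not tested. In the day 7 Foxp3.DTR- group with no DT time, 15 genes were lower than on day 0 in MHCII+ cells and none higher (19.2% of all genes changed, 8.72% lower). Ccna2 differed by -1.65 ± 0.36 (adjusted p = 0.00082, limma). Mki67 stood at 8.57 and 8.99 against 9.51 and 10.41 on day 0, all lower (-1.19, adjusted p = 0.011), and Rrm2 (-1.04), Ccnd1 (-0.92) and Mcm5 (-0.75) were also called. This count was 2 without day 0 array 2 and 5 without the day 7 array 1. The dendritic cell marker sum was 2604 to 2627 on that day 7 against 12786 to 14861 on day 0 (4 of 4 tested lower) and the T cell sum 2248 to 2321 against 3666 to 4037 (1 of 4 tested lower and 1 higher). The satellite cell and muscle sum was 4237 to 4914 against 2062 to 2982 (2 of 6 tested higher and 1 lower). The part of these markers was not tested.

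Foxp3.DTR+ and Foxp3.DTR- mice were compared in 7 groups, to ask whether carrying the receptor for DT changed these genes. No gene of the 36 passed the limma test in any of the 7. The share of all genes called was 0% in both subsets on day 1, 0.0542% and 0.00903% in MHCII+ and MHCII- cells of the 24 h set, 0.488% and 0.0181% in those of the 8 h set, and 11.5% in the set with no DT time. At an unadjusted p under 0.05 the set had 0 and 0 genes on day 1, 0 and 10 in the 24 h set, 12 and 0 in the 8 h set and 3 with no DT time, in the same order. The 4 differences of genotype effects between subsets or between DT times also gave none (0% of all genes; 0, 6, 3 and 1 at an unadjusted p under 0.05).

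In the 24 h set, 34 of 36 genes were below 0 in Foxp3.DTR+ MHCII- cells, with a median of -0.31 beside -0.04 over all genes. The share of all genes below 0 was not counted. The 34 were measured on the same few arrays, so their shared sign is not 34 separate results. Mki67 stood at 9.82, 9.60 and 9.29 against 10.29, 10.28 and 10.03 in Foxp3.DTR- mice, with no overlap, a difference of -0.62 ± 0.27 (adjusted p = 0.72, limma). Rrm2 differed by -0.55 ± 0.23, Mcm5 by -0.36 ± 0.15, Ccna2 by -0.42 ± 0.29, Top2a by -0.31 ± 0.33 and Ccnd1 by 0.09 ± 0.20. Array weights brought the count here from 0 to 27, against 0 with each array left out in turn, array 3 with the higher dendritic cell markers among them. The weights of Foxp3.DTR+ arrays 1, 2 and 3 were 0.46, 31.2 and 0.03, from an estimation that stopped before full convergence. The weighted mean of that group is therefore close to array 2 alone, and the 27 rests mostly on that array. Marker sums differed between these MHCII- groups. In Foxp3.DTR+ against Foxp3.DTR- mice the T cell sum was 1318 to 1543 against 1755 to 1828. The neutrophil sum was 599 to 660 against 698 to 780, and the fibroblast sum 2483 to 2719 against 2034 to 2462. The part of these markers was not tested. On day 1 Mki67 stood at 7.14 and 7.15 in Foxp3.DTR+ MHCII- cells and at 7.21 and 7.48 in Foxp3.DTR-, and the medians of the 36 genes were -0.02 in MHCII+ and -0.01 in MHCII- cells.

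In the 8 h set the median difference in MHCII+ cells was 0.47 for mitotic genes, all 23 above 0, and 0.09 for S phase genes. Over all genes tested the median was -0.04. The 23 were measured on the same few arrays, so their shared sign is not 23 separate results. The size of the difference changed with single arrays. Mki67 stood at 10.24, 8.49 and 9.07 in Foxp3.DTR+ arrays 1, 3 and 4 and at 8.45, 8.38 and 8.73 in Foxp3.DTR-. Ccna2 differed by 0.66 ± 0.29 and Top2a by 0.54 ± 0.33 (adjusted p = 0.23 and 0.36, limma). Rrm2 differed by 0.40, Mcm5 by -0.11 and Ccnd1 by 0.03. Without array 1 the mitotic median was 0.11, and without array 3 it was 0.75, where 14 genes were called. Array 1 is the one with T cell transcripts, with Cd3g at 10.83 against 5.62 and 5.58 and Cd3e at 9.82 against 7.52 and 7.47. The sum over the 7 T cell markers was 2247 to 6165 in this group and 2032 to 2318 in Foxp3.DTR- MHCII+ cells, and its part in the difference was not tested.

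In MHCII+ cells of day 7 with no DT time, all 23 mitotic genes were above 0 in Foxp3.DTR+ mice. Their median was 0.27, beside -0.01 over all genes, and they again share the same few arrays. Mki67 stood at 9.13 and 9.27 against 8.57 and 8.99, all higher, a difference of 0.42 ± 0.34 (adjusted p = 0.54, limma). Bub1 had the largest difference, 0.84 ± 0.45 (adjusted p = 0.29). A fit on the compared arrays alone called 9 genes and array weights 7. Marker sums differed between these groups: 10461 to 11657 against 6021 to 6254 for monocyte markers, 1311 to 1546 against 2604 to 2627 for dendritic cell markers and 1103 to 1110 against 2248 to 2321 for T cell markers. Their part was not tested.

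Other genes of the cell cycle were counted from 4 further lists, of which 31 replication, 44 mitosis, 18 E2F, pocket protein and G1 kinase, and 17 CDK inhibitor and arrest genes were measured. From day 1 to day 4 in MHCII- cells, 12 of 22 tested replication genes and 29 of 32 tested mitosis genes rose and none fell, against 16.9% of all genes higher. Examples were Anln (anillin, of the cleavage furrow; 2.80 ± 0.27), Stmn1 (a microtubule regulator; 2.28), Mad2l1 (of the spindle checkpoint; 2.12) and Ect2 (which starts cytokinesis; 2.01), and for replication Pole (a DNA polymerase subunit; 1.29 ± 0.27), Rfc4, Pola1 and Chaf1b (0.93, 0.81 and 0.80). Some tested genes of these lists, Pole, Nuf2 and Spc25 among them, entered the tests only through groups in which they were high. Nuf2 and Spc25 had their highest means in the day 4 MHCII- group compared here (7.91 and 7.80). Pole had its lowest mean in day 1 Foxp3.DTR- MHCII- cells (6.19), below the level for testing, so its rise is set against values at the low end of the scale. Of the 18 E2F and pocket protein genes 7 rose, among them E2f8 (1.07), Rbl1 (0.67) and E2f1 (0.63). Of 15 arrest genes tested 3 rose (Cdkn2c 1.31, Sesn1 1.20, Ccng2 0.83) and 2 fell (Mdm2 -0.58, Zmat3 -0.48), beside 24.2% of all genes in either direction (16.9% higher). In MHCII+ cells the same interval had 1 of 32 mitosis genes higher (Cks2, 1.05). None of the 22 replication genes changed, with 6 at an unadjusted p under 0.05. Of all genes tested 15.4% changed in this comparison (7.77% higher).

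From day 0 to day 1, 11 of 32 other mitosis genes fell in MHCII+ cells and 14 in MHCII- cells, and none rose, against 17% and 16.2% of all genes lower. Cks2 (a Cdk1 cofactor; -2.02 and -1.40), Kif23 (a kinesin of the midbody; -1.96 and -2.02) and Anln (-1.41 and -2.05) fell in both. Of 22 replication genes, 2 rose (Rfc3 0.83, Fen1 0.55) and 4 fell in MHCII+ cells, and 7 fell in MHCII- cells, the largest being Pola1 (-0.98). In MHCII+ cells 5 of 15 arrest genes rose, among them Phlda3 (1.20) and Zmat3 (1.15). Another 3 fell (Btg2 -1.23, Cdkn2c -0.76, Cdkn1b -0.40), beside 18.6% of all genes higher and 17% lower.

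Of the other D-type cyclins, Ccnd2 (cyclin D2), like Ccnd1, was higher in MHCII+ cells on days 0 and 1. It stood at 10.91 and 10.73 in MHCII+ and at 9.11 and 8.80 in MHCII- cells on day 0, and at 11.44 and 11.57 against 9.01 and 9.01 on day 1 in Foxp3.DTR- mice. It was higher by 1.87 on day 0 and by 2.49 ± 0.22 on day 1 (adjusted p = 7.7e-10, limma). On day 4 Ccnd2 stood at 9.97 and 10.16 against 8.98 and 8.72 and was higher in MHCII+ cells by 1.21 (adjusted p = 0.00079), where all 35 S phase and mitotic genes were below 0. Ccnd3 (cyclin D3) was higher in MHCII+ cells by 0.58 on day 0 (adjusted p = 0.048), and differed by 0.17 on day 1 and 0.06 on day 4, neither of which passed. From day 1 to day 4 in MHCII+ cells Ccnd2 fell by 1.44 ± 0.22, Ccnd3 by 0.60 and Ccnd1 by 0.74, together with Myc (the growth factor induced transcription factor; 0.65) and Cdk4 (the D-cyclin kinase; 0.26).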

How the data were processed

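RNA of sorted macrophages was hybridised to whole-transcript gene arrays (Affymetrix). The authors deposited intensity values on a linear scale for 24922 probe sets on 45 arrays, made by RMA in Affymetrix Power Tools, as listed in the submitters' processing notes (versions not given in the sources used here). RMA corrects background and equalises array distributions, which narrows differences at low intensity. Array medians were 175 to 204, and precision is limited by how many arrays a group has. Of the probe sets, 21425 named 1 gene symbol, 1399 several and 2098 were unnamed here. Values were taken as log2, and each gene was given its probe set with the highest mean.

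Groups follow the titles. A model of the 18 group means was fitted over all 45 arrays with limma 3.58.1 in R 4.3.3 (lmFit, contrasts.fit, eBayes with an intensity trend), so that all groups share 1 estimate of the spread. Genes were tested if a group mean reached the median of all values (190 in linear intensity), 11074 in all, and p-values were adjusted by the Benjamini-Hochberg method within each comparison (threshold 0.05). There were 31 comparisons. The test was checked on simulated data. Tables and figures used Python 3.11.15, numpy 2.4.6, pandas 2.3.3 and matplotlib 3.10.9.

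The members and all lists were chosen with earlier results of these data known. The genes named are the listed members, with the largest changes among those called without overlap, and Mki67, Top2a, Mcm5, Rrm2 and Ccnd1 in each comparison described; from each further list up to 4 per direction by the same rule. Marker genes were named after their values were seen, where a result needs them. Alternatives were 2 other scalings, 2 other filters, all probe sets of a gene, no trend, array weights, a fit on the compared arrays alone, a replicate block and leaving out each array. Replicate numbers were taken as pairs only for the 8 h Foxp3.DTR- subsets. There the deviations of same-numbered arrays correlated at 0.527, 0.48 and 0.583. Groups of 2 arrays share too few numbers to be judged in this way. Elsewhere the correlations ran from -0.457 to 0.691, with 0.242 between the day 0 subsets and 0.289 and 0.281 between the day 1 subsets. The 0.691 was between Foxp3.DTR+ and Foxp3.DTR- arrays, which cannot share an animal. No label states the source of the pairing. No 2 arrays held identical values. Cdkn1a is not analysed here.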

Additional observations from a re-analysis of the deposited data

Results flagged for a closer look

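In 3 of 76 sets of 4 arrays that were checked, 1 array stood apart from the other 3 (by Dixon's test), and chance marks about 1 set in 20. All 3 were in the 24 h Foxp3.DTR- MHCII+ group, each in a different array. Cenpe (a kinetochore kinesin) was 7.65 in array 2 and 7.12 to 7.13 in the others. Plk1 was 8.11 in array 3 and 8.59 to 8.66 in the others. Prc1 (a midzone protein) was 7.51 in array 1 and 6.96 to 7.03 in the others.

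The MHCII+ minus MHCII- difference on day 4 less that on day 1 passed the limma test for 15 genes. In mitotic genes it was -3.31 for Ccna2, -2.46 for Bub1, -2.39 for Ccnb2, -2.15 for Kif11, -2.14 for Plk1, -2.0 for Mki67, -1.77 for Tpx2 and -1.38 for Aurkb. In S phase genes it was -1.75 for Mcm6, -1.69 for Rrm2, -1.63 for Mcm7, -1.57 for Rrm1, -1.28 for Mcm2 and -1.18 for Mcm5. For Ccnd1 it was -1.35. All 15 had MHCII+ above MHCII- cells on day 1, as did all 23 mitotic genes, all 12 S phase genes and Ccnd1. The day 1 difference is also part of the quantity tested.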

How the results depend on the processing

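Values given are counts of the 36 genes called, with limma in every setting. No call of the 36 genes changed direction in any setting. Of the 161 calls of the set over all comparisons, 161 were kept with all probe sets averaged and 160 without the trend. Array weights kept 157, a fit on the compared arrays alone 148 and quantile normalization 146. Without a filter 141 were kept, and after centring 134. The filter on the mean kept 147 of 148 calls. With an array left out, calls were kept in 423 of 737 cases. Of 908 class medians, 846 moved by less than the spread between replicates. The cause of the changes below was not tested.

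Array weights, whose estimation stopped before full convergence, gave for Foxp3.DTR- mice 26 and 3 calls for day 4 against day 0 in MHCII- and MHCII+ cells, 5 for day 4 against day 1 in MHCII+ cells, 6 for the 24 h set against day 4 in MHCII- cells, 7 and 2 for the 8 h set against day 4 in MHCII- and MHCII+ cells, and 29 for day 7 without DT time against day 0. Between subsets they gave 26 and 25 on day 1 (Foxp3.DTR- and Foxp3.DTR+), 5 on day 4, 11 in the 24 h set and 27 and 4 in the 8 h set (Foxp3.DTR- and Foxp3.DTR+), and 32 for the day 4 less day 1 difference. Between genotypes they gave 27 and 5 in MHCII- cells of the 24 h and 8 h sets, 7 without DT time and 8 for the 24 h less 8 h difference in MHCII- cells. The 27 and the 8 use the 24 h Foxp3.DTR+ MHCII- group, where array 2 had a weight of 31.2 against 0.46 and 0.03. Fits on the compared arrays alone gave 26 and 8 for day 4 against day 0, 7 for day 4 against day 1 and 6 for the 8 h set against day 4 in MHCII+ cells, 23 and 24 between subsets on day 1, 12 on day 4, 12 in the 24 h set, 32 for the day 4 less day 1 difference and 9 between genotypes without DT time. Centring and quantile normalization each gave 1 for the 8 h set against day 4 in MHCII+ cells, and quantile normalization 0 between subsets on day 4.

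With 1 array left out, counts ran from 5 to 14 (MHCII+) and 6 to 14 (MHCII-) for day 1 against day 0, 0 to 7 and 3 to 10 for day 4 against day 0, and 0 to 3 and 25 to 26 for day 4 against day 1. They ran from 0 to 2 for the 24 h set and 0 to 1 for the 8 h set against day 4 in MHCII+ cells, and 2 to 16 for day 7 without DT time against day 0. Between subsets they ran from 1 to 13 on day 0, 3 to 11 and 3 to 12 on day 1, 0 to 1 on day 4, 1 to 8 in the 24 h set, 1 to 10 and 0 to 3 in the 8 h set, and 3 to 14 for the day 4 less day 1 difference. They ran from 0 to 14 between genotypes in MHCII+ cells of the 8 h set and were 0 in the other genotype comparisons. A group left with 1 array was assumed to vary like the rest.

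The replicate block gave 9 in place of 6 for the paired 8 h Foxp3.DTR- subsets. Elsewhere the numbers were not taken as pairs, and groups of 2 arrays were too small to judge pairing. There the block gave 30 for day 4 against day 1 in MHCII- cells (30 without it). It gave 13 between subsets on day 1 in Foxp3.DTR- mice (13 without it). No paired analysis was possible because only 1 number was shared in 6 comparisons.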

Other observations

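The spread between arrays of a group was wider for these genes than for genes at large. The median residual SD (log2) of the 36 genes was 0.373 in the 8 h set, beside 0.156 over all genes tested, 0.233 beside 0.115 on day 0, 0.202 beside 0.0842 on day 1 and 0.168 beside 0.117 on day 4. It was 0.239 beside 0.204 in the 24 h set and 0.168 beside 0.0722 in the day 7 set with no DT time.

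Of the 15 arrest genes tested, Phlda3 and Ccng1 were higher in MHCII+ than in MHCII- cells of Foxp3.DTR- mice on day 1, by 0.84 and 0.34 (limma), beside 2.03% of all genes higher, and both were singled out after their values were seen. Phlda3 stood at 9.55 and 9.09 in MHCII+ and at 8.61 and 8.33 in MHCII- cells, all higher, and its day 4 less day 1 subset difference was -0.98, the only one of the 15 that passed the test.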
